A study of Mus musculus with 48 samples.

Results

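The genes described here are nucleic acid sensors and their regulators, chosen by symbol from the count table: the cytosolic RNA sensors Ddx58 (RIG-I), Ifih1 (MDA5) and Dhx58 (LGP2), the adaptors Mavs and Tmem173 (STING), the Z-form nucleic acid sensor Zbp1, the endosomal receptors Tlr3 and Tlr9, and the enzymes Trex1 and Samhd1. Of these 10 symbols, 9 were found among the 36854 genes of the table, and Trex1 was not analysed here. All 9 passed the filter on low counts in every fit. On build GRCm38 Ifih1, Mavs, Zbp1 and Samhd1 lie on chromosome 2, Ddx58 on 4, Tlr3 on 8, Tlr9 on 9, Dhx58 on 11 and Tmem173 on 18. Expression was measured by bulk RNA-seq in 48 mouse p53/MCA sarcomas of strain background 129/SvJae, 16 allografts and 32 primary tumours. Primary tumours were raised in the gastrocnemius of p53FL/FL mice, 6 to 10 weeks old, with Adeno-Cre (an adenovirus that delivers Cre recombinase) and 300 µg of the chemical carcinogen MCA. Allografts grew in the same muscle of syngeneic mice from 50000 injected cells of line 402230, so that all 16 share 1 tumour line, and the p53 genotype of their hosts is not given in the sources used here. At a tumour volume of about 150 mm3 every mouse received 200 µg of either muDX400, a murine anti-PD-1 antibody, or an isotype control antibody, followed by 0 or 20 Gy of X-rays to the tumour-bearing hind limb, and tumours were taken after 3 days. Each of the 8 groups therefore combines a tumour kind, a dose and an antibody, 4 tumours each for allografts and 8 each for primary tumours. The libraries held 31.8 to 54.0 M (M, mega) counts each, with a median of 41.2 M. The mesenchymal marker genes Vim, Col1a1, Col1a2, Pdgfrb, S100a4 and Thy1 summed to 3451 counts-per-million (CPM, with edgeR's TMM scaling) or more in every tumour, and the summed skeletal muscle markers ranged from 12.8 to 68349, so pieces held very unequal amounts of muscle RNA.

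Cells detect misplaced or foreign nucleic acid with receptors in the cytosol and in endosomes. RIG-I and MDA5 bind double-stranded RNA and signal through MAVS on mitochondria, LGP2 modulates both, TLR3 and TLR9 read double-stranded RNA and CpG DNA in endosomes, and STING relays the messenger made by the DNA sensor cGAS. These routes meet at kinases that switch on type I interferon, and several of the sensors are themselves interferon-inducible. ZBP1 binds Z-form nucleic acid and can start necroptosis, while SAMHD1 cleaves deoxynucleotides and TREX1 degrades cytosolic DNA, and loss of either enzyme in people causes an interferon disease. Radiation is known to release DNA and RNA that these sensors can bind.

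The start regions of 4 of these genes are printed because they carry, or lack, letters of the kind through which interferon acts. The windows run from 250 bases before to 50 bases after the annotated start, are credited to RefSeq on GRCm38.p6, and were available for 6 of the 9 genes (Ddx58, Ifih1, Mavs, Tlr3, Tlr9 and Samhd1). Both strands were searched for GAAA-NN-GAAA (written without the hyphens), a form of the interferon-stimulated response element, for its shorter form GAAANNGAA, which every match of the longer one contains, and for TTCNNNGAA, the core bound by STAT dimers. Capitals mark the matches.
Ddx58, chr4:40239776-40240075, minus strand: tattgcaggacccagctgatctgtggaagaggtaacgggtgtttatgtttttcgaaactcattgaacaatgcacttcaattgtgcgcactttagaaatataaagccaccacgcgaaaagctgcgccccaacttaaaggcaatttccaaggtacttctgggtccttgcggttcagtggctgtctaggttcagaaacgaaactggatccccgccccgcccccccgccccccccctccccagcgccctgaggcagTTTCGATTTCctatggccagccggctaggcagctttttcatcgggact
Ifih1, chr2:62646206-62646505, minus strand: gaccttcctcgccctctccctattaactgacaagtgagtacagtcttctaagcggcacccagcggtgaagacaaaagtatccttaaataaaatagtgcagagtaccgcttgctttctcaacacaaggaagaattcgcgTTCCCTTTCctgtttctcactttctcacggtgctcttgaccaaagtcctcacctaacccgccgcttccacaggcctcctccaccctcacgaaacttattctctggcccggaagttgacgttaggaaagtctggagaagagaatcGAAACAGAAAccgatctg
Samhd1, chr2:157135047-157135346, minus strand: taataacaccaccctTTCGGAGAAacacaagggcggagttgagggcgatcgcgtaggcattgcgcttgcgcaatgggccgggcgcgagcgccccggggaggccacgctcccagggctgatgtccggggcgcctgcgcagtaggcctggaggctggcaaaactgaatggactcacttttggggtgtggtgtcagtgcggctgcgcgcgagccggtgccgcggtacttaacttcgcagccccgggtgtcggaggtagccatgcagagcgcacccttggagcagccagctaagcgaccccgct
Mavs, chr2:131233813-131234112, plus strand: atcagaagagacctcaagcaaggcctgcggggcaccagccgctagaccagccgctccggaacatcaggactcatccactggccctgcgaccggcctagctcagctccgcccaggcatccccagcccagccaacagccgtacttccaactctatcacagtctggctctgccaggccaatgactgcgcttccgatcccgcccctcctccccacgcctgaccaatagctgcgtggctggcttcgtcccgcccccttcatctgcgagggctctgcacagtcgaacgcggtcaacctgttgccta
Counting the first base after the start as 1, Ddx58 had a GAAA-NN-GAAA match at position 3, read on the other strand as TTTCGATTTC, and Ifih1 had one at position 33, GAAACAGAAA. Ifih1 also had a match of the shorter form at position -112, TTCCCTTTC on the printed strand. Samhd1 had a TTCNNNGAA match at position -235, TTCGGAGAA. The windows of Mavs, Tlr3 and Tlr9 held none of the 3 patterns. Of 32851 windows of this length in the mouse genome, 3.44% held GAAA-NN-GAAA, 8.56% held GAAANNGAA and 8.3% held TTCNNNGAA. A match is a description of letters and not a binding site.

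Most of these genes were higher 3 days after 20 Gy, in allografts and in primary tumours, while the adaptors Mavs and Tmem173 were not called. With isotype antibody, 7 of the 9 genes rose in allografts and 7 of 9 in primary tumours: Ddx58, Ifih1, Dhx58, Zbp1, Tlr3, Tlr9 and Samhd1. Over all genes, 4.4% were called higher in the allograft comparison and 7.85% in the primary one. A gene was called when its adjusted p in edgeR's quasi-likelihood test was below 0.05. With anti-PD-1, 5 of 9 were called higher in allografts (3.13% of all genes) and 7 of 9 in primary tumours (6.06% of all genes). Neither Mavs nor Tmem173 passed the test in any of these 4 comparisons, and none of the 9 genes was called lower, against 0.744% of all genes in isotype allografts, 0.828% in anti-PD-1 allografts, 6.64% in isotype primary tumours and 1.86% in anti-PD-1 primary tumours. The median log2 change of the 9 genes was 1.78 in allografts and 1.56 in primary tumours with isotype, and 1.02 and 1.21 with anti-PD-1, while the median over all genes lay between -0.02 and 0.02. Each tumour carries an identifier of its own in the sample titles, which do not say what it numbers, and p-values measure the spread between these tumours.

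**Figure D1:**
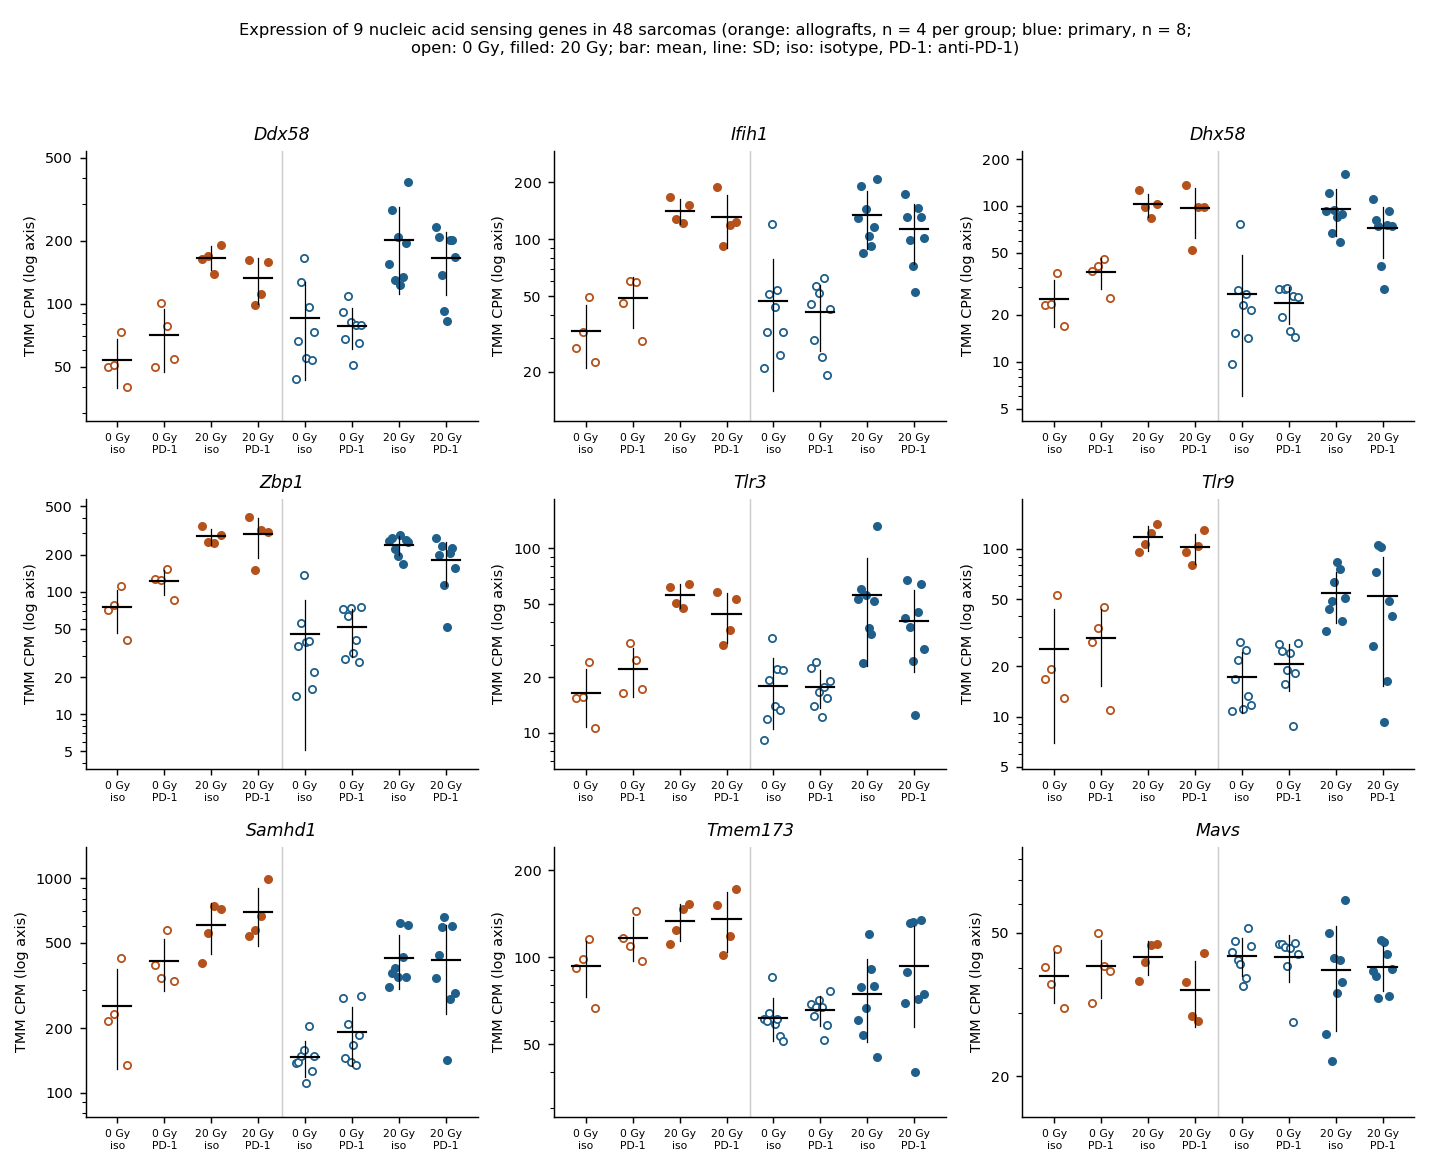
Normalised expression of the 9 genes in each tumour, in CPM on a log axis, by the 8 groups (allografts orange, n = 4 per group; primary tumours blue, n = 8; open symbols 0 Gy, filled symbols 20 Gy; bar, mean; line, SD). In the isotype allografts the 20 Gy tumours of Ddx58, Ifih1, Dhx58, Zbp1, Tlr3 and Tlr9 all lie above the 0 Gy tumours, whereas Mavs stays between 22.1 and 61.8 CPM in all 48 tumours.

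The RNA sensors of the cytosol moved together. Ddx58, whose product RIG-I binds RNA with a 5' triphosphate, stood at 49.8, 50.8, 73.3 and 40.0 CPM in the 4 allografts given isotype and 0 Gy, and at 164, 170, 138.8 and 192 CPM in those given isotype and 20 Gy. The lowest irradiated tumour was well above the highest unirradiated one, and the log2 difference was 1.66 ± 0.25 (SE; adjusted p = 0.00249). In primary tumours with isotype the lowest, median and highest levels of Ddx58 were 43.4, 69.4 and 165 CPM at 0 Gy and 123.4, 175 and 383 CPM at 20 Gy. Here the groups overlapped, with 4 of 8 irradiated tumours above every unirradiated one, and the log2 difference was 1.25 ± 0.27 (adjusted p = 0.00182). Ifih1 encodes MDA5, the sensor of long double-stranded RNA. Its level was 26.8, 32.2, 49.7 and 22.6 CPM in the 0 Gy isotype allografts and 166, 127.4, 121.2 and 151 CPM after 20 Gy. These groups did not overlap either, and the log2 difference of 2.13 ± 0.29 (adjusted p = 0.00141) corresponds to a 4.38-fold higher level. In primary tumours Ifih1 ranged from 21.0 through a median of 38.1 to 119.9 CPM at 0 Gy and from 84.9 through 122.5 to 208 CPM at 20 Gy, a log2 difference of 1.51 ± 0.31 (adjusted p = 0.00124). The 0 Gy maximum came from 1 tumour, replicate 4, and without it the difference was 1.88. Dhx58, the gene of LGP2, a relative of the other RNA sensors without their signalling domain, stood at 23.2, 23.5, 37.0 and 16.9 CPM in the 0 Gy isotype allografts and 125.7, 97.8, 83.5 and 102.5 CPM at 20 Gy. All irradiated tumours were again above all unirradiated ones, by a log2 difference of 2.05 ± 0.29 (adjusted p = 0.00159). The primary tumours had 9.76, 22.4 and 76.9 CPM as lowest, median and highest Dhx58 level at 0 Gy and 58.8, 90.8 and 160.3 CPM at 20 Gy, with 6 of 8 irradiated tumours above all others and a log2 difference of 1.84 ± 0.32 (adjusted p = 0.000238). The locus of Dhx58 overlaps the antisense gene Dhx58os, and since the strand setting of the counting is not given in the sources used here, reads of the pair may not be told apart.

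Under anti-PD-1 the RNA sensors were again higher after 20 Gy, and in primary tumours each of these calls was kept without any single tumour, while in allografts several were lost. Ddx58 was 49.5, 101.3, 78.2 and 54.5 CPM in the 0 Gy anti-PD-1 allografts and 162, 98.5, 111.3 and 159 CPM at 20 Gy, so that 1 irradiated tumour fell inside the unirradiated range. Its log2 difference of 0.94 ± 0.25 sat on the threshold (adjusted p = 0.05 after rounding, just below before it). Ifih1 was 46.0, 60.5, 59.3 and 28.9 CPM at 0 Gy and 188, 92.5, 119.4 and 123.1 CPM at 20 Gy, and Dhx58 was 38.4, 41.5, 45.6 and 25.7 CPM against 136.9, 52.3, 98.5 and 98.9 CPM. Both of these kept the groups apart, with log2 differences of 1.45 ± 0.28 (adjusted p = 0.0125) and 1.38 ± 0.28 (adjusted p = 0.0155). In primary tumours with anti-PD-1 the log2 differences were 1.12 ± 0.27 for Ddx58, 1.48 ± 0.31 for Ifih1 and 1.64 ± 0.31 for Dhx58, with 6, 7 and 7 of 8 irradiated tumours above all unirradiated ones (adjusted p = 0.00952, 0.00347 and 0.00176). In allografts the number of the 9 genes called fell from 5 to 0 when only the compared groups, or all 48 tumours, were fitted, where 0.0059% and 0.595% of all genes were called. It was 2 without 0 Gy replicate 1, 3 without replicate 2 and 1 without replicate 4 of that group, and 3 without 20 Gy replicate 1 and 2 without 20 Gy replicate 3. Shares over all genes are not given for these fits without single tumours. The adjusted p of Ddx58 then lay between 0.0655 and 0.155 without any of 0 Gy replicates 1, 3 and 4 or 20 Gy replicates 1, 3 and 4, and that of Dhx58 was 0.0603 without 0 Gy replicate 4.

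Zbp1 had the largest change of the 9 genes in primary tumours. Its product senses Z-form RNA and DNA and can engage the kinase RIPK3, the trigger of necroptosis. With isotype, primary tumours had a lowest, median and highest Zbp1 level of 14.1, 37.7 and 137.7 CPM at 0 Gy and 168, 257 and 293 CPM at 20 Gy. Every irradiated tumour was above every unirradiated one, and the log2 difference of 2.44 ± 0.38 (adjusted p = 8.43e-05) is a 5.42-fold higher level. The spread changed as well: the coefficient of variation was 88.6% among the 8 tumours at 0 Gy and 17.4% at 20 Gy, a comparison of spreads that was not tested. The 0 Gy maximum was replicate 4, without which the coefficient of variation was 47.2% and the log2 difference 2.97. In isotype allografts Zbp1 was 71.3, 78.7, 110.7 and 40.2 CPM at 0 Gy and 344, 254, 252 and 291 CPM at 20 Gy, again without overlap (log2 difference 1.94 ± 0.31, adjusted p = 0.0029). With anti-PD-1 the allografts had 128.1, 124.96, 155 and 85.4 CPM at 0 Gy and 407, 151, 322 and 306 CPM at 20 Gy. Irradiated replicate 2 lay just below the highest unirradiated tumour, and the log2 difference was 1.29 ± 0.31 (adjusted p = 0.031). That call was lost without 0 Gy replicate 1, 2 or 4 or 20 Gy replicate 1 or 3 (adjusted p 0.0505 to 0.114). In primary tumours with anti-PD-1 the levels were 26.5, 51.6 and 74.9 CPM at 0 Gy and 51.5, 203 and 275 CPM at 20 Gy, and 7 of 8 irradiated tumours were above all unirradiated ones (log2 difference 1.87 ± 0.37, adjusted p = 0.00231).

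Both endosomal receptors were higher after 20 Gy. Tlr3, the receptor for double-stranded RNA, was 15.5, 15.6, 24.3 and 10.6 CPM in the 0 Gy isotype allografts and 61.9, 50.3, 47.1 and 63.6 CPM at 20 Gy. The groups did not overlap, and the log2 difference was 1.78 ± 0.28 (adjusted p = 0.00267). Primary isotype tumours had 9.15, 16.6 and 32.4 CPM of Tlr3 at 0 Gy and 23.8, 52.6 and 131.3 CPM at 20 Gy, with 7 of 8 irradiated tumours above all others (log2 difference 1.65 ± 0.31, adjusted p = 0.000503). With anti-PD-1 Tlr3 was 16.4, 30.5, 24.8 and 17.2 CPM against 57.5, 29.9, 35.9 and 52.8 CPM in allografts. One irradiated tumour lay within the unirradiated range there, and the log2 difference of 1.02 ± 0.27 was not called (adjusted p = 0.0525), although it passed without 20 Gy replicate 2 (1.14, adjusted p = 0.0438). In primary tumours under the antibody it was called at 1.21 ± 0.31 (adjusted p = 0.0132). Another annotated gene, Gm45542, overlaps the Tlr3 locus, which leaves the Tlr3 counts uncertain to that extent.

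Tlr9 signals for CpG DNA and is expressed mainly by immune cells. It stood at 16.7, 19.3, 52.8 and 12.9 CPM in the 0 Gy isotype allografts and 95.8, 107.3, 124.6 and 141.4 CPM at 20 Gy, so that even the high 0 Gy replicate 3 was below all irradiated tumours. The log2 difference was 2.23 ± 0.44 (adjusted p = 0.00961), the largest of the 9 genes in this comparison. It was 2.88 without 0 Gy replicate 3 and lost its call without 0 Gy replicate 2 (2.10, adjusted p = 0.0505). In primary isotype tumours the lowest, median and highest Tlr9 levels were 10.8, 15.0 and 28.0 CPM at 0 Gy and 32.4, 49.9 and 83.6 CPM at 20 Gy. These groups did not overlap, and the log2 difference was 1.68 ± 0.36 (adjusted p = 0.00203). With anti-PD-1 the allografts had 27.7, 33.9, 44.9 and 10.9 CPM at 0 Gy and 95.5, 80.4, 103.6 and 128.9 CPM at 20 Gy, without overlap (log2 difference 1.83 ± 0.44, adjusted p = 0.0308). That call was lost without 0 Gy replicate 1, 2 or 4 or 20 Gy replicate 3 (adjusted p 0.0548 to 0.0839). Primary tumours with anti-PD-1 ranged from 8.81 through a median of 21.4 to 27.6 CPM at 0 Gy and from 9.28 through 44.1 to 104.95 CPM at 20 Gy, with a log2 difference of 1.4 ± 0.36 (adjusted p = 0.0156). The groups overlapped widely in that comparison, and 5 of 8 irradiated tumours were above all unirradiated ones.

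Samhd1, the deoxynucleotide triphosphohydrolase, rose in primary tumours under both antibodies. With isotype its lowest, median and highest levels were 110.5, 143.2 and 205 CPM at 0 Gy and 311, 371 and 619 CPM at 20 Gy. No irradiated tumour overlapped the unirradiated ones, and the log2 difference was 1.56 ± 0.24 (adjusted p = 8.43e-05). With anti-PD-1 the log2 difference was 1.16 ± 0.24 (adjusted p = 0.00322), and 6 of 8 irradiated tumours were above all others. In isotype allografts Samhd1 was 215, 233, 426 and 134.7 CPM at 0 Gy and 399.7, 552, 741 and 715 CPM at 20 Gy. The highest unirradiated allograft, replicate 3, was above the lowest irradiated one, and the log2 difference of 1.28 ± 0.34 was called (adjusted p = 0.0388). The call was lost without 0 Gy replicate 1, 2 or 4 or 20 Gy replicate 2, 3 or 4 (log2 difference 1.05 to 1.32, adjusted p 0.0639 to 0.124). With anti-PD-1 the allografts had 393, 341, 569.8 and 332 CPM at 0 Gy and 537, 571, 669 and 995 CPM at 20 Gy, a log2 difference of 0.80 ± 0.33 that was not called (adjusted p = 0.197).

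The adaptors were the flattest of the 9 genes. Mavs, which couples RIG-I and MDA5 to the interferon kinases, was 40.1, 36.2, 45.2 and 30.9 CPM in the 0 Gy isotype allografts and 36.9, 41.6, 46.4 and 46.7 CPM at 20 Gy. In primary isotype tumours it ranged from 35.7 through a median of 43.2 to 51.6 CPM at 0 Gy and from 22.1 through 39.3 to 61.8 CPM at 20 Gy. The groups overlapped, and the log2 differences were 0.20 in allografts (approximate 95% interval -0.16 to 0.55) and -0.11 in primary tumours (-0.40 to 0.17). With anti-PD-1 they were -0.19 (-0.55 to 0.16) and -0.05 (-0.33 to 0.24), so these intervals exclude the 2.43-fold to 4.68-fold differences that the called genes showed in isotype allografts. Tmem173, which encodes STING, was 91.8, 98.7, 115.4 and 66.6 CPM in the 0 Gy isotype allografts and 110.9, 124.3, 147 and 153 CPM at 20 Gy. Although 3 of 4 irradiated tumours were above all unirradiated ones, the log2 difference of 0.55 (0.15 to 0.94) was not called (adjusted p = 0.153). In primary isotype tumours it ranged from 51.2 through 60.5 to 85.1 CPM at 0 Gy and from 45.0 through 72.9 to 120.3 CPM at 20 Gy, a log2 difference of 0.29 (-0.09 to 0.68, adjusted p = 0.329). With anti-PD-1 the Tmem173 differences were 0.25 (-0.14 to 0.65, adjusted p = 0.54) in allografts and 0.55 (0.16 to 0.93, adjusted p = 0.0814) in primary tumours. The primary value passed the test without 20 Gy replicate 5 (0.66, adjusted p = 0.0167), a tumour with 40.1 CPM of Tmem173, and in the fit of all 48 tumours (0.54, adjusted p = 0.0461).

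**Figure D2:**
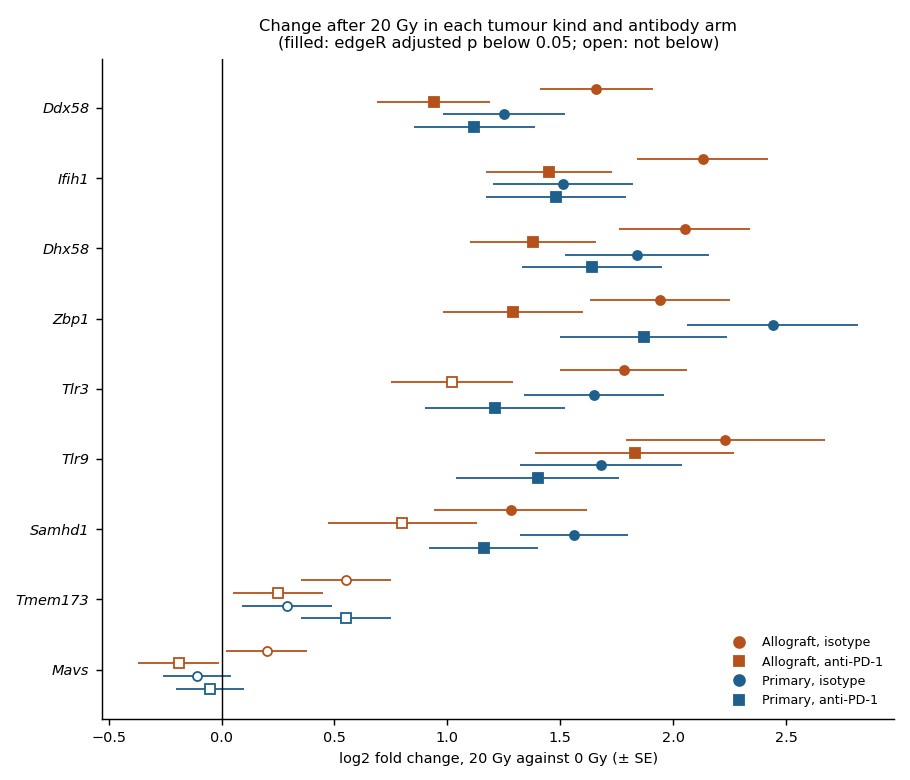
Log2 difference between 20 Gy and 0 Gy tumours for each of the 9 genes (point, fitted value; line, ± SE) in the 4 comparisons of dose, filled where the adjusted p was below 0.05. Mavs lies within -0.19 to 0.20 in all 4 comparisons, and Zbp1 in isotype primary tumours is farthest from 0 at 2.44.

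Groups without any overlap give a view of the same changes that needs no model. In isotype allografts 6 of the 9 genes had every 20 Gy tumour above every 0 Gy tumour (Ddx58, Ifih1, Dhx58, Zbp1, Tlr3 and Tlr9), against 9.45% of all genes. In isotype primary tumours 3 did so (Zbp1, Tlr9 and Samhd1), against 1.55% of all genes. With anti-PD-1 the numbers were 3 in allografts (Ifih1, Dhx58 and Tlr9; 5.44% of all genes) and 0 in primary tumours (0.259%). In the primary anti-PD-1 group at 20 Gy, replicate 5 was the lowest tumour for 8 of the 9 genes, all but Mavs, with 51.5 CPM of Zbp1, 52.8 CPM of Ifih1, 12.5 CPM of Tlr3 and 9.28 CPM of Tlr9. Its summed leukocyte markers (392 CPM) and its summed interferon response genes (470.4 CPM) were the lowest of that group too. Without that tumour Tmem173 was called as well in the same comparison (log2 difference 0.66, adjusted p = 0.0167).

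General leukocyte markers were higher after 20 Gy in the same tumours, while few markers of single immune cell types were called. In bulk tissue, fewer cells of a type and less RNA per cell cannot be told apart. The sum of 5 leukocyte genes (Ptprc, Cd53, Laptm5, Coro1a and Cd52) ranged from 580.2 to 1135 CPM in isotype allografts at 0 Gy and from 1447 to 2164 CPM at 20 Gy, and from 480.2 to 791 and from 797 to 1909 CPM in isotype primary tumours. All 5 were called higher in both comparisons. With anti-PD-1 the medians of that sum were 994 and 2175 CPM in allografts and 697 and 1021 CPM in primary tumours, and 3 and 2 of the 5 genes were called. Of 6 macrophage markers, 1 (Cd68) was called higher in isotype allografts and 2 (C1qa and Cd68) in isotype primary tumours, while 0 of 5 T cell markers were called in either. The T cell sum had medians of 62.4 and 55.8 CPM in isotype allografts and 18.7 and 31.6 CPM in isotype primary tumours. The sum of 5 neutrophil markers had medians of 97.1 and 141.5 CPM in isotype allografts, where none was called and the median log2 change of the 5 genes was -0.56, and of 27.7 and 124.3 CPM in isotype primary tumours, where Csf3r was called higher. With anti-PD-1 Csf3r was called higher in allografts and Csf3r and Retnlg in primary tumours. Of 5 B cell markers only Pax5 was called with dose, higher in isotype primary tumours. No marker of these lists was at 0 in all tumours of a group. The part of immune cells in the changes of the 9 genes was not tested.

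Other differences between the groups ran alongside dose. The transcript of the inactive X chromosome, Xist, passed 10 CPM in 1 unirradiated and 3 irradiated allografts of each antibody arm, and in 5 unirradiated and 2 irradiated isotype primary tumours. With this status as a covariate 6 of the 9 genes were called in isotype allografts (2.42% of all genes were called higher), Samhd1 losing its call (1.31, adjusted p = 0.0811). In anti-PD-1 allografts 2 were called with it (2.06% of all genes), Ifih1 and Dhx58, while Ddx58, Zbp1 and Tlr9 lost their calls (adjusted p = 0.0988, 0.0606 and 0.0552). The identifier in the sample titles began with the digit 5 in 4 of 4 isotype allografts at 0 Gy and 1 of 4 at 20 Gy, and no label explains that digit. With the digit as a covariate 5 genes were called there (1.02% of all genes were called higher): Ddx58 (1.41, adjusted p = 0.0309), Ifih1, Dhx58, Zbp1 and Tlr3. Tlr9 (2.15, adjusted p = 0.0723) and Samhd1 (1.47, adjusted p = 0.114) kept their direction and lost their calls. In anti-PD-1 allografts 6 genes were called with this covariate (2.96% of all genes), Tlr3 joining the 5. Within the digit 5 the isotype allografts offered 4 unirradiated tumours and 1 irradiated one, replicate 2, which was above all 4 for 8 of the 9 genes, Mavs being the exception, and 21.1% of all genes had it above all 4. In anti-PD-1 allografts with the digit 5, 3 irradiated tumours were all above 3 unirradiated ones for 6 genes (Ddx58, Ifih1, Dhx58, Tlr3, Tlr9 and Samhd1; 9.04% of all genes). Among isotype primary tumours with the digit 4, 7 irradiated tumours were all above 8 unirradiated ones for 3 genes (Zbp1, Tlr9 and Samhd1; 2.01% of all genes), and in anti-PD-1 primary tumours with that digit 8 were all above 7 for 0 genes (0.293%). Skeletal muscle markers had a median log2 change with dose of 2.2 and 2.77 in primary tumours with isotype and anti-PD-1, and of -0.64 and -0.03 in allografts, with 0 of 7 called in each. With their sum as a covariate 7 of the 9 genes were called in isotype primary tumours (7.84% of all genes), anti-PD-1 primary tumours (6.15%) and isotype allografts (4.42%), and 4 in anti-PD-1 allografts (3.13%), Ddx58 losing its call (0.93, adjusted p = 0.0561). Of the 6 mesenchymal markers, Vim was called lower in both primary comparisons and none in allografts. The part of these differences in the changes of the 9 genes was not tested beyond these fits.

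The combination of 20 Gy and anti-PD-1 was compared with 0 Gy and isotype in each tumour kind. In allografts 7 of the 9 genes were called higher (7.43% of all genes), the same genes as with 20 Gy and isotype, and these 7 had no overlap between groups (8.72% of all genes). Their log2 differences ran from 1.33 ± 0.25 for Ddx58 to 2.02 ± 0.44 for Tlr9. In primary tumours 8 of 9 were called higher (8.78% of all genes), with Zbp1 at 2.04 ± 0.37 and Samhd1 at 1.53 ± 0.24 (adjusted p = 0.000503 and 0.00013), and 0 had groups without overlap (0.332%). The added gene was Tmem173, at a log2 difference of 0.62 ± 0.20 (adjusted p = 0.0339). That call was lost without 0 Gy isotype replicate 5 or 8 or 20 Gy anti-PD-1 replicate 3, 4 or 7 (adjusted p 0.0548 to 0.093). Without 0 Gy isotype replicate 3 the allograft difference of Tlr9 was 2.67. These comparisons share their 0 Gy isotype tumours with the isotype comparisons of dose.

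No change with anti-PD-1 alone passed the test among the 9 genes. At 0 Gy and at 20 Gy, in allografts and in primary tumours, 0 of 9 were called by edgeR, and in each of these 4 comparisons 0% of all genes were called. Below an unadjusted threshold of 0.05 there was 1 gene, Zbp1 in 0 Gy allografts (log2 difference 0.70), and DESeq2 called 0 of 9 in each. In 0 Gy allografts all 9 log2 differences were positive, from 0.07 for Mavs to 0.70 for Zbp1, and in 20 Gy allografts they ran from -0.35 for Tlr3 to 0.20 for Samhd1. In primary tumours they ran from -0.21 to 0.38 at 0 Gy and from -0.48 to 0.32 at 20 Gy. Whether the antibody altered the change with dose was tested as an interaction, which called 0 of 9 genes in either tumour kind (0% of all genes, and 0 of the 9 at an unadjusted p below 0.05). In allografts the interaction was negative for all 9 genes, from -0.30 (Tmem173) to -0.76 (Tlr3, unadjusted p = 0.0668, adjusted p = 0.864). The approximate 95% interval of Tlr3, -1.52 to -0.01, leaves out 0 only because it is narrower than the test allows. In primary tumours the interaction ran from -0.57 (Zbp1, -1.56 to 0.42) to 0.26 (Tmem173, -0.29 to 0.80).

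Without treatment effects, 1 of the 9 genes was called between primary tumours and allografts, where 10.0% of all genes were called in either direction. That count is near the share over all genes. In the 0 Gy isotype groups Tmem173 was lower in primary tumours, at 61.7 CPM ± 10.3 (SD, n = 8) against 93.1 CPM in allografts (n = 4; 91.8, 98.7, 115.4 and 66.6), a log2 difference of -0.60 ± 0.16 (adjusted p = 0.0293; 3.99% of all genes were called lower and 6.03% higher). None of the 9 was called higher. In the same comparison 4 of 5 T cell markers (Cd3d, Cd3e, Cd3g and Cd8a), 1 of 5 leukocyte markers (Cd52) and 2 of 5 neutrophil markers (Csf3r and Retnlg) were called lower in primary tumours, with median log2 differences of -1.78, -0.60 and -1.94 for the lists. The macrophage list went the other way (median 0.35, Mrc1 called higher), as did the mesenchymal list (0.89, Col1a2 and Pdgfrb called higher). The B cell, plasmacytoid dendritic cell and type 1 dendritic cell lists had medians of -0.78, -0.56 and -0.06, with 0 genes called. The part of these cells in the level of Tmem173 was not tested. The Tmem173 call was lost without allograft replicate 1, 2 or 3 (-0.49 to -0.62, adjusted p 0.067 to 0.0956). Samhd1 had a log2 difference of -0.79 ± 0.25 that missed the threshold (adjusted p = 0.0607), and passed it without allograft replicate 4 (-1.0, adjusted p = 0.0286) or primary replicate 6 (-0.90, adjusted p = 0.0408). Zbp1 was at -0.74 ± 0.52 and was called without primary replicate 4 (-1.24, adjusted p = 0.0469). The other 6 genes lay between -0.56 (Tlr9) and 0.67 (Ddx58). All 8 primary tumours of this comparison carried an identifier beginning with 4 and all 4 allografts one beginning with 5, so the digit and the tumour kind cannot be told apart here. No difference in the change with dose between the tumour kinds was called for any of the 9. The interaction of kind and dose called 0 of 9 with isotype (0% of all genes higher and 0.00517% lower) and 0 of 9 with anti-PD-1 (0%), with 0 of 9 at an unadjusted p below 0.05 in both. It ran from -0.61 (Ifih1, -1.56 to 0.33) to 0.50 (Zbp1, -0.60 to 1.61) with isotype, and from -0.44 to 0.58 with anti-PD-1. DESeq2 also called 0 of the 9 in both interactions.

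The order of the genes by level, read per kilobase of merged exon, shifted with dose. At 0 Gy with isotype Tmem173 and Samhd1 were highest, at 34.0 ± 7.39 and 27.6 ± 13.5 CPM per kilobase in allografts (SD, n = 4) and 22.5 ± 3.77 and 16.0 ± 3.05 in primary tumours (SD, n = 8). Tlr3 was lowest in both, at 3.17 and 3.46 CPM per kilobase. After 20 Gy with isotype Zbp1 headed the order, at 80.8 ± 12.2 in allografts and 68.5 ± 11.9 in primary tumours, followed by Samhd1 at 65.8 and 46.3, and Tlr3 was again lowest at 10.7 in each. Mavs fell from the 4th place in allografts and the 3rd in primary tumours to the 8th in both without a called change of its own (11.4 and 12.9 CPM per kilobase at 0 Gy, 12.8 and 11.8 at 20 Gy). Neighbours in these orders overlapped in their tumours, except Ifih1 over Mavs in isotype allografts at 20 Gy, Zbp1 over Mavs in anti-PD-1 allografts at 0 Gy and Tlr9 over Ddx58 in anti-PD-1 allografts at 20 Gy.

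Other genes of the same routes, taken from lists by role, were called in part, and those called were higher after 20 Gy with 1 exception, Enpp1. Among 6 other sensors (Cgas, Aim2, Tlr7, Tlr8, Tlr13 and Eif2ak2) 5 were called higher in isotype allografts and 6 in isotype primary tumours, and 2 and 4 with anti-PD-1. Over all genes the shares called higher were 4.4% and 7.85% with isotype, and 3.13% and 6.06% with anti-PD-1. In isotype allografts the 5 became 3 in the fit of all 48 tumours, 1 with the digit covariate and 1 with the Xist covariate. In those fits 1.92%, 1.1% and 2.82% of all genes were called in either direction. Tlr13, a receptor for bacterial ribosomal RNA, rose in all 4 comparisons, from 48 to 119.1 CPM in isotype allografts (log2 difference 1.33 ± 0.30, adjusted p = 0.02) and from 47.9 to 102.1 CPM in isotype primary tumours (1.12 ± 0.22, adjusted p = 0.00104). Cgas, the DNA sensor upstream of STING, changed less: 16.7 to 24.9 CPM in isotype allografts (0.60 ± 0.15, adjusted p = 0.0329) and 16.8 to 24.1 CPM in isotype primary tumours (0.55 ± 0.18, adjusted p = 0.0363), and with anti-PD-1 it was not called (0.53, adjusted p = 0.0664, and 0.01, adjusted p = 0.976). Both Cgas calls were lost without single tumours, 6 of 8 in allografts (0 Gy replicates 1, 2 and 4, 20 Gy replicates 1, 3 and 4; adjusted p 0.0683 to 0.114) and 5 of 16 in primary tumours (0 Gy replicates 1, 2 and 7, 20 Gy replicates 5 and 8; 0.0561 to 0.0673). Both were also lost with no filter (adjusted p = 0.0669 and 0.063) and with the Xist covariate (0.118 and 0.0609). The allograft call was lost as well with the digit covariate (0.43, adjusted p = 0.289), all 48 tumours (0.228) and only the compared groups (0.059). The Tlr13 call in isotype allografts was lost without 0 Gy replicate 1, 2 or 4 or 20 Gy replicate 3 or 4 (adjusted p 0.0618 to 0.0917), and in anti-PD-1 allografts without 0 Gy replicate 1, 2 or 4 or 20 Gy replicate 2 or 3 (0.0569 to 0.0983). The isotype call was also lost with the digit covariate (1.19, adjusted p = 0.155) and the Xist covariate (1.19, 0.0706). The anti-PD-1 call was lost with all 48 tumours (0.0534), only the compared groups (0.129) and the Xist covariate (0.0763).

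Among 10 adaptors, kinases and effectors, 5 were called higher in isotype allografts, 3 in isotype primary tumours and 2 and 4 with anti-PD-1. The 5 in isotype allografts became 2 with the digit covariate and 2 with the Xist covariate. Myd88, the adaptor of TLR9, and Ikbke, a kinase that activates interferon regulatory factors, were called in all 4 comparisons. In anti-PD-1 allografts both calls were lost when only the compared groups were fitted (adjusted p = 0.0991 and 0.057). Myd88 rose from 63.8 to 124.7 CPM in isotype allografts (0.99 ± 0.17, adjusted p = 0.00389) and from 52.6 to 90.1 CPM in isotype primary tumours (0.80 ± 0.14, adjusted p = 0.000323). Ikbke went from 29.3 to 68.1 CPM (1.24 ± 0.17, adjusted p = 0.00138) and from 19.4 to 45.9 CPM (1.27 ± 0.25, adjusted p = 0.000939). Irf3, the interferon regulatory factor that RIG-I, TLR3 and STING share, had log2 differences of 0.10 and -0.01 in the same comparisons and was not called. Of 5 ubiquitin ligases and regulators of the RNA arm, 4 were called higher in each isotype comparison and 1 and 3 with anti-PD-1, with Rnf135, the ligase Riplet that activates RIG-I, called in all 4 (1.32 ± 0.24 in isotype allografts, adjusted p = 0.00537; 1.2 ± 0.23 in isotype primary tumours, adjusted p = 0.000561). In anti-PD-1 allografts Rnf135 lost its call without 0 Gy replicate 2 or 4 or 20 Gy replicate 3 (adjusted p 0.0528 to 0.0845). The same call was lost with all 48 tumours (0.0716), only the compared groups (0.119) and the Xist covariate (0.0536). In isotype allografts the Rnf135 call was lost with the digit covariate (0.94, adjusted p = 0.0684). Of 6 enzymes that edit or degrade nucleic acid or its messenger, only Adar, the RNA editing enzyme, was called higher in the isotype comparisons (1.47 ± 0.25 and 1.15 ± 0.19). In anti-PD-1 allografts Dnase2a was called higher (0.87, adjusted p = 0.0429) and Enpp1, which degrades the cGAS product, lower (56.6 to 18.1 CPM; -1.62 ± 0.36, adjusted p = 0.022). These 2 calls became 0 in the fits of all 48 tumours and of the compared groups only, 0 without 0 Gy replicate 2 or 4 or 20 Gy replicate 2 or 3, and 1 without replicate 1 of either dose. Leaving out 1 tumour at a time, the calls ran from 1 to 5 of the other sensors, 2 to 6 of the adaptors and kinases and 2 to 4 of the ubiquitin regulators in isotype allografts, and from 3 to 6, 2 to 5 and 3 to 4 in isotype primary tumours. In isotype allografts leaving out any of 6, 6 and 5 of the 8 tumours moved these 3 counts by more than 1.5 times, and in isotype primary tumours 1, 1 and 0 of the 16 did. With anti-PD-1 the ranges for the same 3 lists were 1 to 2, 2 to 3 and 0 to 1 in allografts and 2 to 4, 3 to 5 and 3 to 5 in primary tumours.

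Ifnb1 was low and the interferon response genes were not. The other interferon gene listed, Ifna4, did not pass the filter on low counts and was not tested in these fits, and with no filter both genes were called in isotype primary tumours. Ifnb1, which encodes interferon beta, averaged 0.126 CPM at 0 Gy and 0.896 CPM at 20 Gy in isotype allografts (log2 difference 2.83 ± 0.72, adjusted p = 0.0329) and 0.11 and 0.643 CPM in isotype primary tumours (2.53 ± 0.72, adjusted p = 0.0171). With anti-PD-1 it was called in allografts (0.0871 and 0.776 CPM, adjusted p = 0.0302) and not in primary tumours (0.0841 and 0.277 CPM, adjusted p = 0.146). The isotype allograft value fell to 1.86 (adjusted p = 0.112) without 20 Gy replicate 1, and the call was also lost without any of 0 Gy replicates 1 to 4 or without 20 Gy replicate 4. With the digit covariate the isotype allograft value was 1.85 and was not called (adjusted p = 0.312). Both allograft calls of Ifnb1 were lost in the fit of all 48 tumours and with the Xist covariate. In anti-PD-1 allografts it was lost without any 0 Gy replicate or without 20 Gy replicate 1 (2.55, adjusted p = 0.0641) or 3, while the primary isotype value was 3.75 without 0 Gy replicate 4, and the primary anti-PD-1 value was called without 0 Gy replicate 4 (2.49, adjusted p = 0.0414). Of 10 interferon response genes that are not sensors, 10 were called higher in isotype allografts, isotype primary tumours and anti-PD-1 allografts, and 9 in anti-PD-1 primary tumours. Their sum rose from a median of 393 to 2328 CPM in isotype allografts and from 483 to 2591 CPM in isotype primary tumours. Mx1, an antiviral GTPase, went from 16.6 to 108.9 CPM in isotype allografts (2.74 ± 0.36, adjusted p = 0.00115) and from 21.5 to 126.7 CPM in isotype primary tumours (2.57 ± 0.49, adjusted p = 0.0007). Oasl2 and Rtp4 had log2 differences of 2.14 and 1.92 in allografts and 1.93 and 1.74 in primary tumours. In anti-PD-1 allografts the number called was 0 of 10 when all 48 tumours, or only the compared groups, were fitted (0.595% and 0.0059% of all genes called in those fits), and 4 without 0 Gy replicate 4, and Oasl2 also lost its call without 0 Gy replicate 1 or 20 Gy replicate 1, 3 or 4 (adjusted p 0.0542 to 0.0708).

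Within groups the 9 genes fell into sets that varied together from tumour to tumour. For each gene the deviation of log2(CPM + 0.5) from its group mean was taken in all 48 tumours, so that dose, antibody and tumour kind were removed. The values below describe these tumours, which share library depth and tissue mixture between genes, and the sets were formed after the correlations were seen. Ddx58, Ifih1, Dhx58, Zbp1 and Tlr3 correlated with each other at Pearson's r of 0.67 to 0.94 (10 pairs, median 0.85). Tmem173, Tlr9 and Samhd1 correlated at 0.71 to 0.79 (3 pairs), and the 15 pairs between these sets at 0.14 to 0.50. Mavs correlated with the others at -0.12 to 0.29. In the 16 allografts alone the pairs between the sets reached 0.40 to 0.78 and Mavs 0.40 to 0.81, while in the 32 primary tumours they were 0.04 to 0.47 and -0.24 to 0.17, a difference that was not tested.

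**Figure D3:**
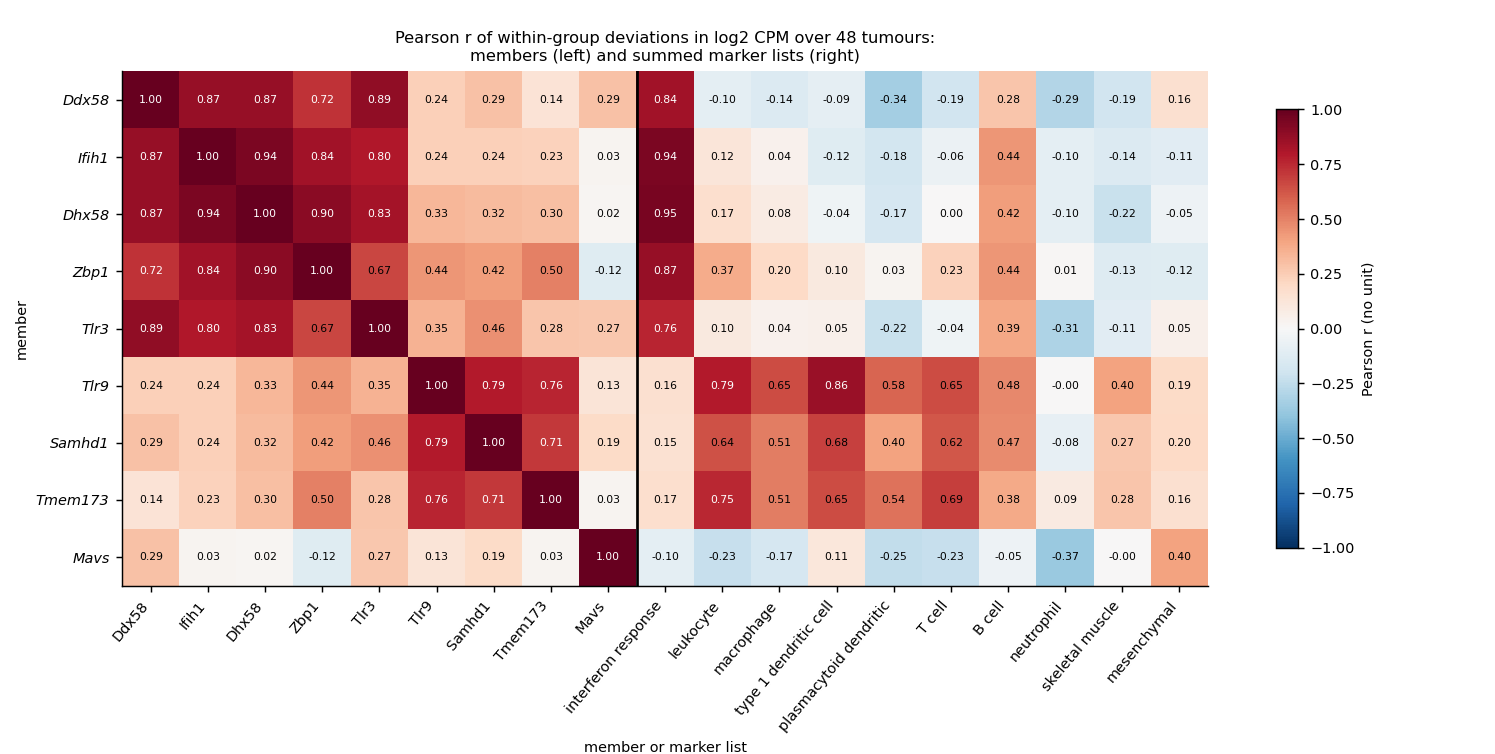
Pearson's r between within-group deviations of log2 CPM over 48 tumours, for pairs of the 9 genes and for each gene against the summed level of 10 gene lists. The block of Ddx58, Ifih1, Dhx58, Zbp1 and Tlr3 (0.67 to 0.94) is strong with the interferon response list, and Tmem173, Tlr9 and Samhd1 (0.71 to 0.79) with the leukocyte list.

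Over all 48 tumours the sets differed in what else they followed. With the sum of the 10 interferon response genes r was 0.84 for Ddx58, 0.94 for Ifih1, 0.95 for Dhx58, 0.87 for Zbp1 and 0.76 for Tlr3 (Spearman's rho 0.83, 0.94, 0.95, 0.80 and 0.79), and without the 2 tumours farthest from the median of that sum it was 0.79, 0.92, 0.93, 0.82 and 0.70. The same sum gave 0.17 for Tmem173, 0.16 for Tlr9 and 0.15 for Samhd1. With the leukocyte sum r was 0.75 for Tmem173, 0.79 for Tlr9 and 0.64 for Samhd1 (rho 0.57, 0.65 and 0.49; 0.64, 0.70 and 0.48 without the 2 farthest tumours), against 0.12 for Ifih1 and 0.37 for Zbp1. By tumour kind, the leukocyte sum gave 0.83 for Tmem173, 0.81 for Tlr9, 0.69 for Samhd1, 0.00 for Ifih1, 0.10 for Dhx58 and 0.34 for Zbp1 in the 32 primary tumours. Ddx58 and Tlr3 had -0.17 and 0.05 there. In the 16 allografts it gave 0.43, 0.74, 0.52, 0.62, 0.48 and 0.53 for the same 6 genes and 0.21 and 0.32 for Ddx58 and Tlr3, so that the values of the sets overlapped. With the interferon sum Tmem173, Tlr9 and Samhd1 had 0.42, 0.51 and 0.12 in allografts and 0.13, 0.09 and 0.16 in primary tumours, and these differences between tumour kinds were not tested. Tlr9 followed the type 1 dendritic cell markers Xcr1, Clec9a, Flt3 and Wdfy4 most closely (r = 0.86, rho 0.80), and their sum was low, between 12.8 and 73.8 CPM over the 48 tumours.

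**Figure D4:**
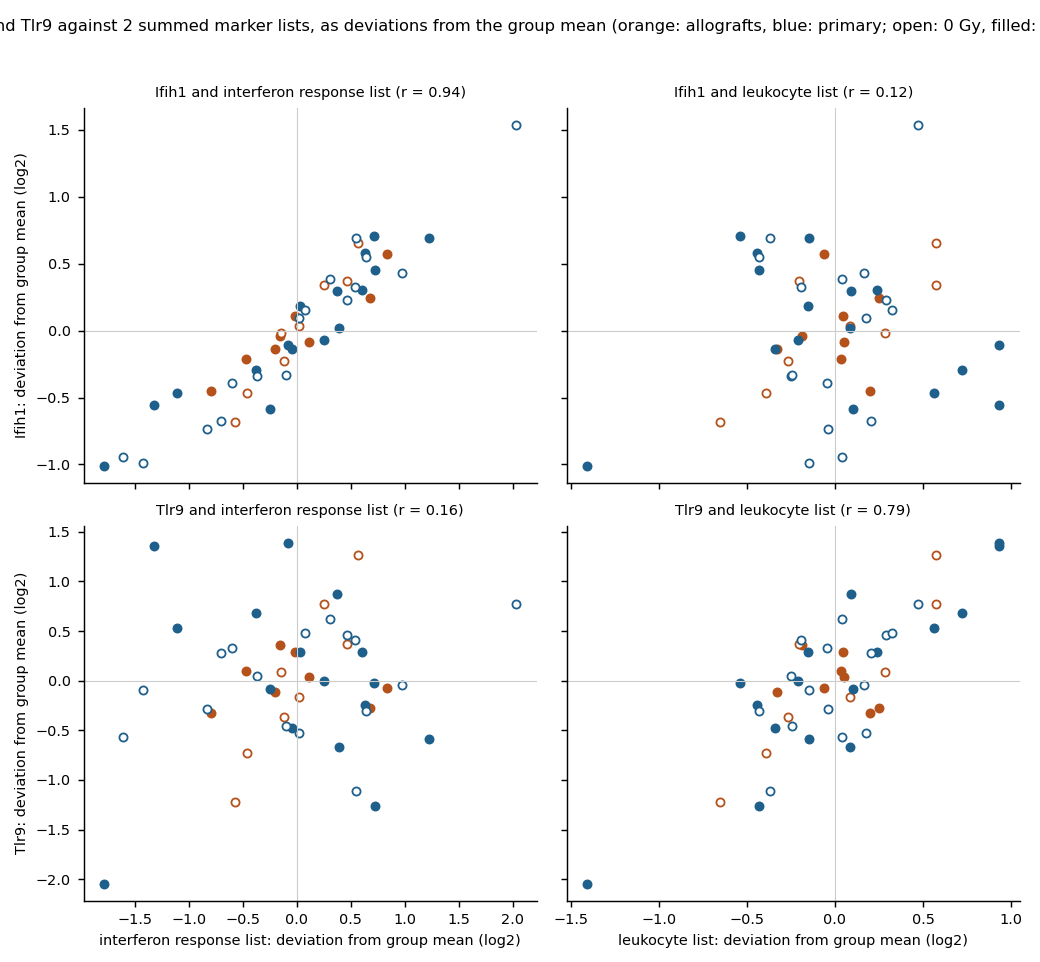
Within-group deviations of Ifih1 and Tlr9 (vertical, log2 CPM) against those of the summed interferon response list and the summed leukocyte list (horizontal, log2 CPM), 1 point per tumour, 48 tumours. Over all 48 tumours Ifih1 follows the interferon list (r = 0.94) more closely than the leukocyte list (0.12), and Tlr9 the leukocyte list (0.79) more closely than the interferon list (0.16), while in the 16 allografts alone Ifih1 has 0.62 with the leukocyte list and Tlr9 has 0.51 with the interferon list.

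The genes most alike each of the 9 were sought by the same measure among the 11722 genes that averaged 5 CPM or more, leaving out the 9 genes themselves. For Ddx58 these were Eif2ak2, the double-stranded RNA kinase PKR (r = 0.94), Adar (0.92) and Oasl2 (0.92). Ifih1 and Dhx58 both had Ifi44 first (0.96 each) and Parp12 among the nearest (0.92 and 0.93), with Usp18 (0.92) for Ifih1 and Xaf1 (0.93) for Dhx58. Zbp1 was nearest to Irf7, the interferon regulatory factor that amplifies interferon production (0.94), Xaf1 (0.93) and Gbp3 (0.91). Tlr3 had Parp11 (0.88), Adar (0.88) and Eif2ak2 (0.86). The other set had other neighbours: Tlr9 was nearest to Dock2, a leukocyte migration gene (0.92), Pik3ap1 (0.92) and Tmem229b (0.90), Samhd1 to the guanylate-binding protein genes Gbp7 (0.90) and Gbp5 (0.86) and to Gm4951 (0.85), and Tmem173 to Il12rb1, an interleukin 12 receptor chain (0.86), the leukocyte integrin gene Itgal (0.86) and the antigen transporter gene Tap1 (0.84). Mavs stood alone with Vcp (0.83), Trappc9 (0.83) and Rptor (0.81). These are descriptions over 48 tumours, with no p-value. Pairs among the 9 genes were left out of them, and some were as close, such as Ifih1 with Dhx58 (0.94) and Ddx58 with Tlr3 (0.89).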

How the data were processed

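Bulk RNA-seq was made from 48 tumours with a strand-specific poly(A) kit, from RNA with an integrity number above 7, per the labels' protocols. What the authors deposited is a table of raw counts, whole numbers for each Ensembl gene, with no normalisation. Trimmomatic 0.36, STAR 5.5.4b, HTSeq and the build mm10 are named in the submitters' processing notes, and the annotation and the strand setting of the counting are not given in the sources used here. Groups follow the labels, and replicate numbers follow accession order. Counts of the 136 pairs of tumours within groups differed by a chi-square of at least 85.6 per degree of freedom, so no library was entered more than once within a group. Pairs of tumours from different groups were not compared.

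Symbols, exon lengths and gene overlaps came from GENCODE M21 on GRCm38. Genes were filtered with filterByExpr by group, scaled by TMM and tested with edgeR 4.0.16 (quasi-likelihood F test, R 4.3.3), with Benjamini-Hochberg adjustment over all genes. The 4 groups of a tumour kind shared 1 fit (17746 genes in allografts, 17770 in primary tumours). The baseline comparison used its 2 groups (17357 genes) and the interactions with tumour kind all 48 tumours (19327 genes). An SE is the log2 difference divided by the square root of F, and an approximate 95% interval is 1.96 SE to each side. With few tumours such an interval is narrower than the F test would give. Scripts were tested on simulated counts. At totals of 31.8 to 54.0 M counts, counting error matters mainly for genes below about 1 CPM, and reads carry no molecular identifiers. The alternatives were DESeq2 1.42.0, its size factors, no filter, fewer or more groups in the fit, covariates for identifier digit, Xist and muscle, and leaving out each tumour.

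The 9 genes and the gene lists were chosen with earlier results of these data known. All 9 are named whatever their values. Of the other lists, genes are named that were called in all 4 comparisons of dose, at most 3 per list by p in isotype primary tumours, plus Cgas and Ifnb1, and the 3 genes most alike each of the 9. Other genes named with values or calls, among them Irf3, Adar, Dnase2a, Enpp1 and single cell type markers, fall outside this rule and were chosen after their values were seen, as were the sets that varied together.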

Additional observations from a re-analysis of the deposited data

Results flagged for a closer look

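In 7 of 72 sets (9 genes in 8 groups) the lowest or highest tumour was set apart from the others by more than Dixon's 95% limit, and chance gives about 1 in 20. In the 8 isotype primary tumours at 0 Gy, replicate 4 was high for Ifih1 (119.9 CPM), Dhx58 (76.9 CPM), Tmem173 (85.1 CPM) and Zbp1 (137.7 CPM). The same tumour had the highest sum of the 10 interferon response genes in its group, 2023 CPM against a median of 483. Without it the changes with dose in isotype primary tumours were 1.88 for Ifih1, 2.30 for Dhx58 and 2.97 for Zbp1 on the log2 scale, and 7 of the 9 genes were still called. Tlr3 was high in replicate 8 of the isotype primary tumours at 20 Gy (131.3 CPM), which also had the highest interferon response sum of its group (4277 CPM), and without it the change of Tlr3 was 1.37 (adjusted p = 0.00109, edgeR). Tlr9 was high in replicate 3 of the isotype allografts at 0 Gy (52.8 CPM), the tumour with the highest leukocyte sum of its group (1135 CPM). Mavs was low in replicate 6 of the anti-PD-1 primary tumours at 0 Gy (28.3 CPM).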

How the results depend on the processing

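The count of the 9 genes called held within 1.5 times under every alternative for 20 Gy with isotype in both tumour kinds, 20 Gy with anti-PD-1 in primary tumours, the combinations, anti-PD-1 alone and the interactions. For 20 Gy with anti-PD-1 in allografts 5 genes were called, against 0 with all 48 tumours in 1 fit, 0 with only the compared groups, 2 with the Xist covariate and 1 to 6 leaving out 1 tumour. At baseline 1 gene was called (10.0% of all genes), against 2 with DESeq2 (16.5%), 0 with all 48 tumours (10.3%), 0 with the Xist covariate (6.91%) and 0 to 2 leaving out 1 tumour. The counts of 1 and 2 lie near the shares over all genes. Leaving out 1 tumour gave 5 to 7 genes for isotype allografts, 7 for isotype primary tumours, 7 to 8 for anti-PD-1 primary tumours, 7 and 7 to 8 for the combinations, and 0 for the rest. Shares over all genes are not given for the fits that leave out 1 tumour. With only the compared groups Samhd1 in isotype allografts had an adjusted p of 0.0754, Tlr9 in anti-PD-1 primary tumours 0.0673 and Tmem173 in the primary combination 0.0664, while DESeq2 called Tmem173 in the allograft combination (0.57, adjusted p = 0.042). The causes were not tested.

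No value whose direction reversed was called, and most were near 0, the exception being Tlr9 at baseline (-0.56). Cgas in anti-PD-1 primary tumours was -0.00 with no filter, -0.03 with the digit covariate and -0.02 to -0.05 without single tumours (-0.02, -0.04, -0.04, -0.02 and -0.05; range over all tumours left out -0.05 to 0.11). With anti-PD-1 alone, Mavs was -0.05 in 0 Gy allografts without anti-PD-1 replicate 2 (range to 0.19), Samhd1 was -0.05 in 20 Gy allografts without anti-PD-1 replicate 4 (range to 0.35), and Ifih1 was 0.17 in 0 Gy primary tumours without isotype replicate 4 (range from -0.30). At baseline Dhx58 was -0.10 with the Xist covariate, -0.26 with the muscle covariate, -0.04 without allograft replicate 4 and -0.33 without primary replicate 4 (range to 0.35), Tlr3 was -0.04 and -0.05 without these tumours (range to 0.36), and Tlr9 was 0.08 without allograft replicate 3 (range from -0.78).

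Counts over all genes moved more. For 20 Gy with isotype in allografts 912 genes were called, against 1530 with DESeq2, 372 with all 48 tumours, 196 with the digit and 500 with the Xist covariate. For 20 Gy with anti-PD-1 in allografts the counts were 703, 1664 (DESeq2) and 1 (compared groups only), and 0.595% of the genes tested with all 48 tumours, and for the allograft combination 1714, 2626, 851 and 1075. In primary tumours the anti-PD-1 comparison gave 1407, 2188, 2156 and 822 and the combination 2446 and 1384 (compared groups only), and baseline gave 1738 and 2868 (DESeq2). DESeq2 called 3 and 5 genes for anti-PD-1 alone in 0 Gy and 20 Gy primary tumours, none of them among the 9. Another scaling moved the median of all genes by 0.047 at most on the log2 scale. No paired analysis was possible because the replicate numbers follow accession order only. Transcripts below about 1 CPM, here Ifnb1, are limited by depth.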

Other observations

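Plasmacytoid dendritic cell markers (Siglech, Ccr9, Pacsin1 and Klk1), from a cell type rich in TLR9, summed to medians of 10.3 and 10.5 CPM in isotype allografts at 0 and 20 Gy, while Tlr9 itself went from a mean of 25.4 to 117.3 CPM, and 0 of these 4 genes were called higher in any of the 4 comparisons of dose. Their median log2 change was 0.66 in isotype allografts and 1.03 in isotype primary tumours, and their sum correlated with Tlr9 within groups at r = 0.58 (rho 0.59, 48 tumours). The part of these cells in the level of Tlr9 was not tested. Of the type 1 dendritic cell markers, Wdfy4 was called higher in both isotype comparisons.

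Summed leukocyte markers in the anti-PD-1 primary tumours at 20 Gy ranged from 392 to 1981 CPM, and Tlr9 in the same 8 tumours from 9.28 to 104.95 CPM, the widest coefficient of variation of that gene in any primary group (70.9%).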
